A study of Mus musculus with 35 samples.

Results

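The core spliceosome genes described here encode the proteins of the small nuclear ribonucleoproteins (snRNPs) and the PRPF, SF3 and LSM proteins that act with them. They were chosen by gene symbol alone, and 61 symbols in the deposited expression table matched. Of these, 2 were pseudogenes and were left out, and 2 had no counts: Snrnp35, which lay between 6.25 and 7.7 RPKM (reads scaled by gene length and library size) in control total lysate, and Snrpert, which was listed at 0 there. The remaining 57 members of the 9239 genes with counts were all tested. By role they fall into 8 Sm ring genes, 7 genes of the LSm2 to LSm8 ring, 6 U1 genes, 11 U2 genes, 4 genes for recognition of the 3′ splice site and branch point, 8 genes of U5 and the tri-snRNP, 5 for activation and catalysis, 2 of the minor spliceosome, and 6 LSm genes that act outside splicing.

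The study silenced Chtop, an mRNA export adaptor of the TREX complex, in N2a cells, a mouse neuroblastoma line, and asked how the export and location of transcripts depend on its alternative exon 5. The 35 libraries of polyadenylated RNA came from 2 N2a Flp-In rtTA lines, one carrying an siRNA-resistant FLAG-Chtop cDNA without exon 5 (mEx5) and one carrying it with exon 5 (pEx5). Each line received non-targeting siRNA (control), Chtop siRNA (knockdown), or Chtop siRNA with doxycycline to switch on the cDNA (rescue). Medium was changed 24 h after transfection and cells were harvested at 72 h, when 20% of the sample was kept as total lysate and the rest was split into nuclei and cytoplasm. Each group had 2 biological replicates, except the cytoplasmic pEx5 control, which had 1 library. Doxycycline was given only with the rescue, so its own effect and that of the cDNA cannot be told apart. All cells, controls included, are from engineered lines, and only 1 line carries each isoform.

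The spliceosome removes introns from pre-mRNA. U1 recognises the 5′ splice site and U2 the branch point, the U4/U6.U5 tri-snRNP then joins, and U1 and U4 leave as the catalytic core forms. Sm proteins form a ring on U1, U2, U4 and U5 RNA, and LSm2 to LSm8 form the ring on U6. These proteins work in the nucleus, but their mRNAs are translated in the cytoplasm.

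Assigned counts were 20652832 to 36102129 per library in total lysate, 11681781 to 28705620 in nuclei and 19478702 to 40105458 in cytoplasm. Chtop itself checked the labels: after knockdown Chtop fell by 2.36 on the log2 scale in total lysate, fell by 0.84 in nuclei and fell by 2.63 in cytoplasm. It rose with rescue in all 3, to above every control library. In counts scaled to library size (CPM), total lysate had 187.5 to 289.2 after rescue and 124.5 to 140.9 in controls. Nuclei had 220.7 to 301.5 against 95 to 127.1, and cytoplasm 174.2 to 199.9 against 139.9 to 153.6. Of 12 neuroblastoma markers, 8 to 9 were over 1 RPKM (Tubb3 was highest, and Dcx was at or near 0), and those of other cells summed to at most 25.9 RPKM in any library. RNA of 15 mitochondrial genes made up 0.628% to 1.61% of nuclear counts over all treatments. In controls it was 0.701% to 1.53% in nuclei and 1.9% to 2.09% in cytoplasm. The nuclear RNAs Malat1 and Neat1 summed to 214 to 294.4 RPKM in control nuclei and 17.82 to 24.94 RPKM in control cytoplasm. How much cytoplasmic RNA the nuclear libraries held, and its part in the ratios below, was not tested.

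The 120 bases before the start annotated by RefSeq are shown for 6 members that the results below turn on: the 4 that rose after knockdown in every fraction, 1 of the 2 that fell in every fraction, and Snrnp70, whose nuclear to cytoplasmic ratio changed. They are from RefSeq (GRCm38.p6), read 5′ to 3′ on the strand of the gene, with the letters of the motifs searched in capitals. In GENCODE the gene starts earlier for Prpf40b, at chr15:99295087, and for Sf3a3, at chr4:124714776. By that annotation the whole window of Prpf40b and part of that of Sf3a3 lie inside the gene. Prpf31 lies at chr7:3629865-3629984 (plus), Prpf4 at chr4:62408663-62408782 (plus), Prpf40b at chr15:99295121-99295240 (plus), Sf3a3 at chr4:124714741-124714860 (plus), Lsm11 at chr11:45944936-45945055 (minus) and Snrnp70 at chr7:45395743-45395862 (minus).
Prpf31: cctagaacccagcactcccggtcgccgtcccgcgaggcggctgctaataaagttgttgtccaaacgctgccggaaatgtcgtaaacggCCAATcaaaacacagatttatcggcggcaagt
Prpf4: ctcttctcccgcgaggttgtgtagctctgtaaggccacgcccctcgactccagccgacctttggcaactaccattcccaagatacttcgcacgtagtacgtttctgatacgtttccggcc
Prpf40b: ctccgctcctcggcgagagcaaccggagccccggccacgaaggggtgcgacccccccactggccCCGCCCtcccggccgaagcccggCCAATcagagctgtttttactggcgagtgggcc
Sf3a3: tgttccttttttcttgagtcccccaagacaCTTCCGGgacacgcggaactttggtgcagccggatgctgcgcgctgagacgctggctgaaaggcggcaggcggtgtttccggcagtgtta
Lsm11: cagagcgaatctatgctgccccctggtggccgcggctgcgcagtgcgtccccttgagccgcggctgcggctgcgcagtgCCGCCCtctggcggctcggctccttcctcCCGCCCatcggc
Snrnp70: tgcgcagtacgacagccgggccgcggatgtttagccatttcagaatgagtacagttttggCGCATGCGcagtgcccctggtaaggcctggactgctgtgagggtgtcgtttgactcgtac
On both strands, the ETS letters CCGGAAG stood before 11 of 46 matched members (23.9%) and before 5.15% of 27025 promoters, and the GC box letters GGGCGG before 50% and 26.9%. The NRF1 letters CGCATGCG of Snrnp70 stood before 6.52% and 1.21%, the CCAAT letters before 30.4% and 22.1%, the E-box CACGTG before 4.35% and 3.64%, and TATAAA before 2.17% and 6.76%. The median GC content of these windows was 59.6% for the members and 54.2% for all promoters, and the part of GC content in these shares was not tested. All promoters include those of genes without counts here, while every member has counts. For all promoters the first listed start was used, and for members the one nearest the annotated 5′ end. Whether the shares differ from those of other genes with counts was not tested. None of the letters searched stood in the window of Prpf4.

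In control cells, the mRNAs of most core spliceosome genes were skewed to the cytoplasm and a few were strongly nuclear. The log2 ratio of nuclear to cytoplasmic CPM (counts scaled to library size), set so that the bulk of all genes lies near 0, was below 0 for 31 members and above 0 for 11 at an adjusted p under 0.05 (quasi-likelihood test in edgeR, Benjamini-Hochberg adjusted over all genes). Among all genes, 36.1% were lower and 33.8% higher, and their median was -0.03, against -0.39 for the members. Each fraction was scaled to its own total, so these ratios order genes and do not give the share of an mRNA in the nucleus. RNA content per cell and the number of cells cannot be told apart in such bulk samples.

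The Sm ring genes, which encode the proteins loaded onto snRNA in the cytoplasm, were among the most cytoplasmic. Of the 8, 7 were lower in nuclei, and the median of the ring was -0.84. Snrpd2 had 80.9, 60.5, 81.8 and 59.9 CPM in the nuclear controls and 165, 128 and 149 CPM in the cytoplasmic ones. The 2 sets of libraries did not overlap, and the ratio was -1.06 (SE 0.21, adjusted p = 0.000358). Snrpe, at -0.55, did not pass the test.

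The U6-binding LSm ring had the same skew, with 6 of 7 genes lower in nuclei and a median of -0.67. Lsm5 was lowest at -1.02 (SE 0.34, adjusted p = 0.014), and Lsm7, at -0.06, did not pass. Of the LSm genes outside splicing, 5 of 6 were lower: Lsm1, part of the cytoplasmic ring in mRNA decay, had a ratio of -1.01 (SE 0.10, adjusted p = 2.06e-07). Lsm11, which serves the U7 snRNP in histone mRNA processing, lay at 0.03.

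The strongly nuclear members were found among U1, activation and minor spliceosome genes. Prpf39, a U1-associated protein for alternative 5′ splice site use, had 236, 211, 193 and 171 CPM in nuclei and 32.6, 27.9 and 31.1 CPM in cytoplasm. Its ratio of 2.72 (SE 0.11, adjusted p = 4.28e-11) was the highest of the members, but its exons overlap those of Fkbp3 on the opposite strand, and no source used here says whether counting used strand. Snrnp48, a protein of the minor U11/U12 particle, had 76.3 to 109 CPM in nuclei and 14.02 to 21.1 CPM in cytoplasm, a ratio of 2.47 (SE 0.11, adjusted p = 5.87e-11). Snrnp25, of the same particle, went the other way at -0.74 (SE 0.15, adjusted p = 0.000493).

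Within U1 the members split. Prpf40b had a ratio of 1.61 (SE 0.14) and Snrnp70, the U1-70K protein that binds U1 RNA directly, of 1.47 (SE 0.09), with adjusted p of 5.11e-08 and 9.07e-10. Snrpa and Snrpc, the other U1-specific proteins, were lower in nuclei at -0.45 and -0.71. The control ratio deposited by the authors was 0.05 for Snrpa and -0.81 for Snrpc. Among the activation factors Prpf38b stood at 1.27 (SE 0.08) and the kinase Prpf4b at 0.81 (SE 0.09), while Prpf38a was lower at -0.58.

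U2 and tri-snRNP genes divided by subunit. Of 11 U2 genes, 2 were higher in nuclei, Sf3b1 (0.37), which grips the branch point, and Sf3b3 (0.30), and 6 were lower, from Sf3a1 at -0.24 to Snrpb2 at -0.99. Of 8 tri-snRNP genes, 2 were higher, Prpf4 (0.35) and Prpf3 (0.33), and 3 were lower, Prpf31 (-0.22), Snrnp40 (-0.42) and Snrnp27 (-0.84). U2af2, the large subunit of the polypyrimidine tract reader U2AF, was the only one of the 4 genes for 3′ splice site recognition to pass, at 0.41 (SE 0.09, adjusted p = 0.000664). On the deposited RPKM without recentring, where the median of all genes moved to -0.415, Prpf3, Prpf4, Sf3b1 and Sf3b3 fell just below 0, and the split of members was 6 higher to 44 lower. The authors' deposited control ratios also differed for Sf3a1 (0.05), Prpf3 (1.32), Snrnp48 (1.46) and Lsm11 (-0.38). They were nearer for others, such as Prpf4 (0.44), Sf3b3 (0.23) and Snrpd2 (-1.12). The source of these differences was not tested.

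**Figure D1:**
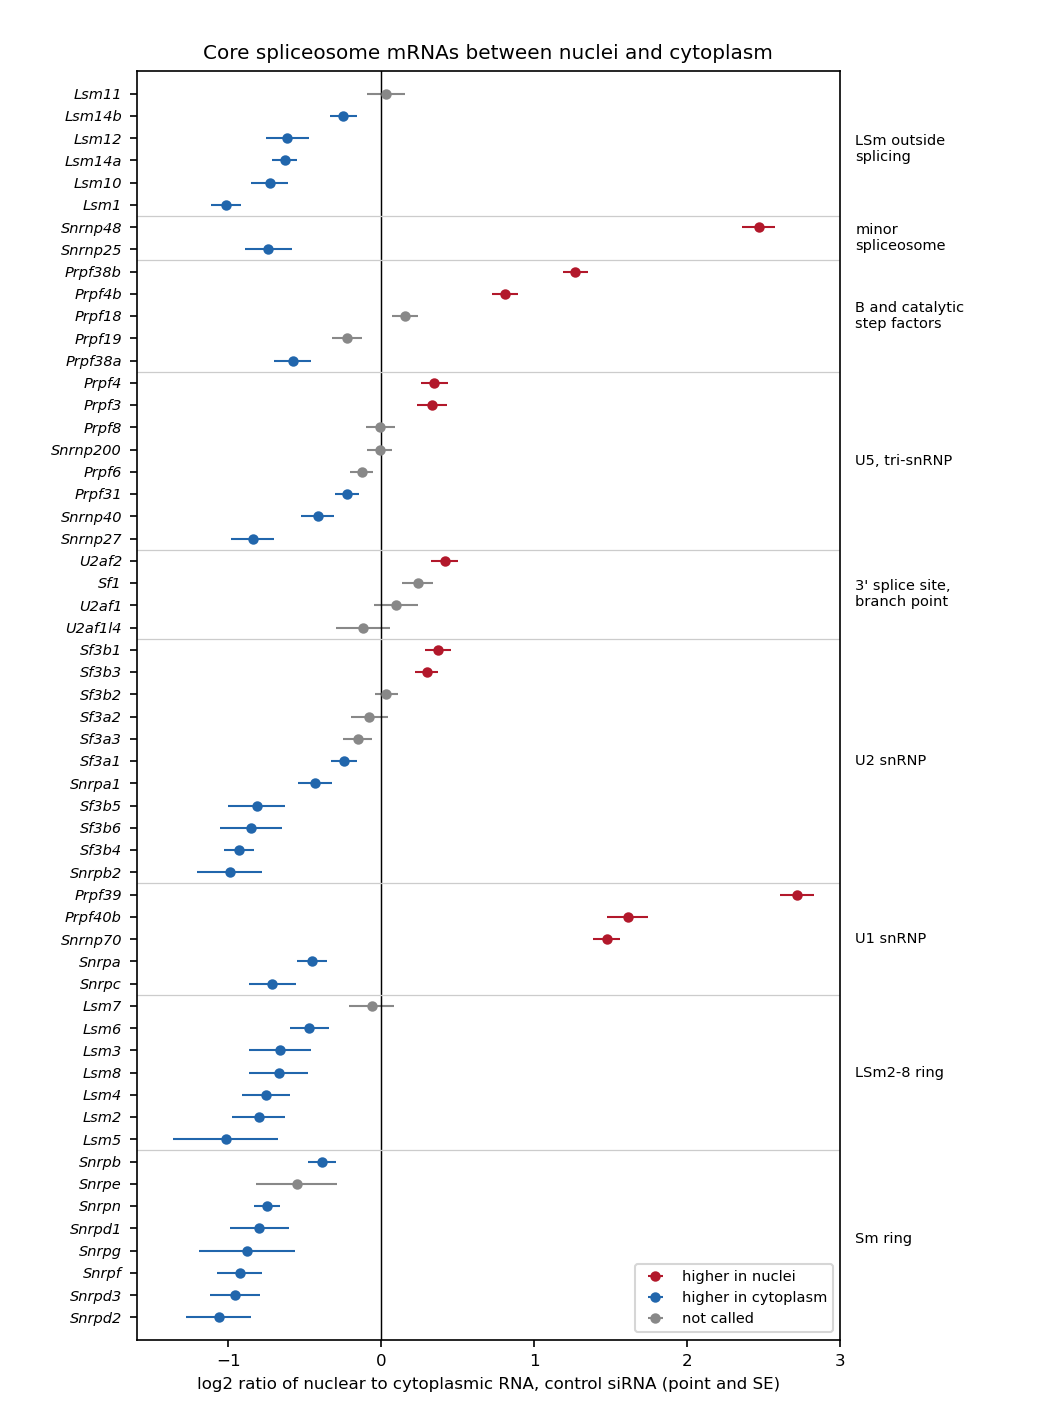
Log2 ratio of nuclear to cytoplasmic RNA in control cells (x axis, point and SE) for the members, grouped by role, with the call in colour (1 member is not shown). The Sm and LSm rings lie left of 0, while Prpf39, Snrnp48, Prpf40b, Snrnp70 and Prpf38b lie beyond 1.

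Longer mRNAs with more introns had higher ratios among the members. Across the 57 genes Spearman's rho was 0.551 with transcript length and 0.677 with the number of introns, and across 8923 of all genes it was 0.419 and 0.381. Pearson's r on the log2 scale was 0.428 and 0.486 for the members, and 0.382 and 0.331 for all genes. Whether the members differ from all genes in this was not tested. The points share the same libraries, and genes are not independent replicates. In the authors' deposited table, 22 of the 57 members (38.6%) carry a mark for Chtop binding by iCLIP, against 48.5% of all genes. Of these 22, 10 were higher in nuclei and 2 lower, while of the 35 unmarked members 1 was higher and 29 lower. The same split was not made over all genes, so whether it is particular to the members was not tested. The part of transcript length and intron number in it was not tested either.

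Outside the members, 67 other spliceosome genes with counts were divided evenly, with 22 higher in nuclei, 23 lower and a median of 0.00. Those are shares of 32.8% and 34.3%, near the 33.8% and 36.1% of all genes. Rbm25 (1.86) and Luc7l (1.37) were highest and Cwc15 (-1.02) lowest. Of 17 genes for snRNP assembly and import, 1 was higher (5.88%), Ddx20 (0.75), and 10 were lower (58.8%), with Gemin6 lowest at -1.003.

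Without the replicate block, edgeR called the total level of 20 members changed after Chtop knockdown, by at most 0.69 on the log2 scale. In total lysate 15 rose and 5 fell, where 21.4% of all genes rose and 22.6% fell, so that 26.3% of members were called higher and 8.77% lower. The median of the members was 0.14 against 0.01 for all genes. The replicate numbers pair the libraries here, and with them as a block 27 members rose and 12 fell, where 31.4% of all genes rose and 31.4% fell. Without replicate 2 of the pEx5 control the counts were 8 and 3, without replicate 1 of the pEx5 knockdown 7 and 3, and without replicate 2 of the mEx5 control 9 rose. On RPKM without recentring 12 rose and 8 fell, a share of 60% higher against 75%.

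Of the 11 U2 genes, 6 were higher and 2 lower. Sf3b6, the p14 protein at the branch point, rose by 0.69 (SE 0.20, adjusted p = 0.0203) from 31.9, 28.96, 33.9 and 23.4 CPM to 56.8, 37.6, 58.0 and 38.7 CPM. All knockdown libraries lay above all controls, with replicate 1 above replicate 2 in both groups. Leaving out replicate 2 of either control or replicate 1 of either knockdown ended this call, with an adjusted p of up to 0.0863 by edgeR. Sf3b5 (0.42), Sf3b3 (0.37), Sf3a3 (0.35), Sf3b4 (0.28) and Sf3a2 (0.24), whose exons overlap Plekhj1 on the opposite strand, also rose. Snrpa1, the U2 A′ protein, fell by 0.36 (SE 0.08, adjusted p = 0.00561) from 113 to 132 CPM in controls to 82.3 to 109 CPM, and Sf3a1 fell by 0.24.

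Prpf4 (0.43), Prpf31 (0.40) and Snrnp40 (0.24) rose among 8 tri-snRNP genes and none fell. Prpf19, the ubiquitin ligase of the activation complex, rose by 0.40 (SE 0.08, adjusted p = 0.00228), from 160 to 193 CPM in controls to 232 to 252 CPM, and Prpf4b by 0.23. Prpf18, a step 2 factor, fell by 0.21. In U1, Prpf40b rose by 0.43.

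The small ring genes had large changes with large errors. Snrpg, a core Sm protein, had the highest fold change of the members, 0.96 in total lysate, and did not pass the test, with 61.1, 47.8, 52.9 and 35.8 CPM in controls and 131, 64.0, 119 and 68.7 CPM after knockdown. Every knockdown library lay above every control, and replicate 1 lay above replicate 2 within each group. With the replicate block it passed at 0.90 (adjusted p = 0.000617). Snrpf, at 0.69 (SE 0.19, adjusted p = 0.0169), was the only Sm ring gene higher without the block, a call lost without any of the same 4 libraries (adjusted p up to 0.0716 by edgeR), and Snrpn the only one lower, at -0.21. The LSm2 to LSm8 genes, from -0.22 for Lsm4 to 0.52 for Lsm5, passed only with the block, all 7 of them: Lsm2, Lsm3, Lsm5, Lsm6, Lsm7 and Lsm8 higher, and Lsm4 lower.

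The median of the 15 ring genes was higher in replicate 1 than in replicate 2 in every group of total lysate and nuclei. The median log2 difference over the rings was 0.154 to 0.558 in total lysate and 0.219 to 0.638 in nuclei, while that of all genes lay between -0.0277 and 0.00249. In cytoplasm it ran from -0.189 to 0.338. Its part in the results of the ring genes was not tested beyond the block.

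**Figure D2:**
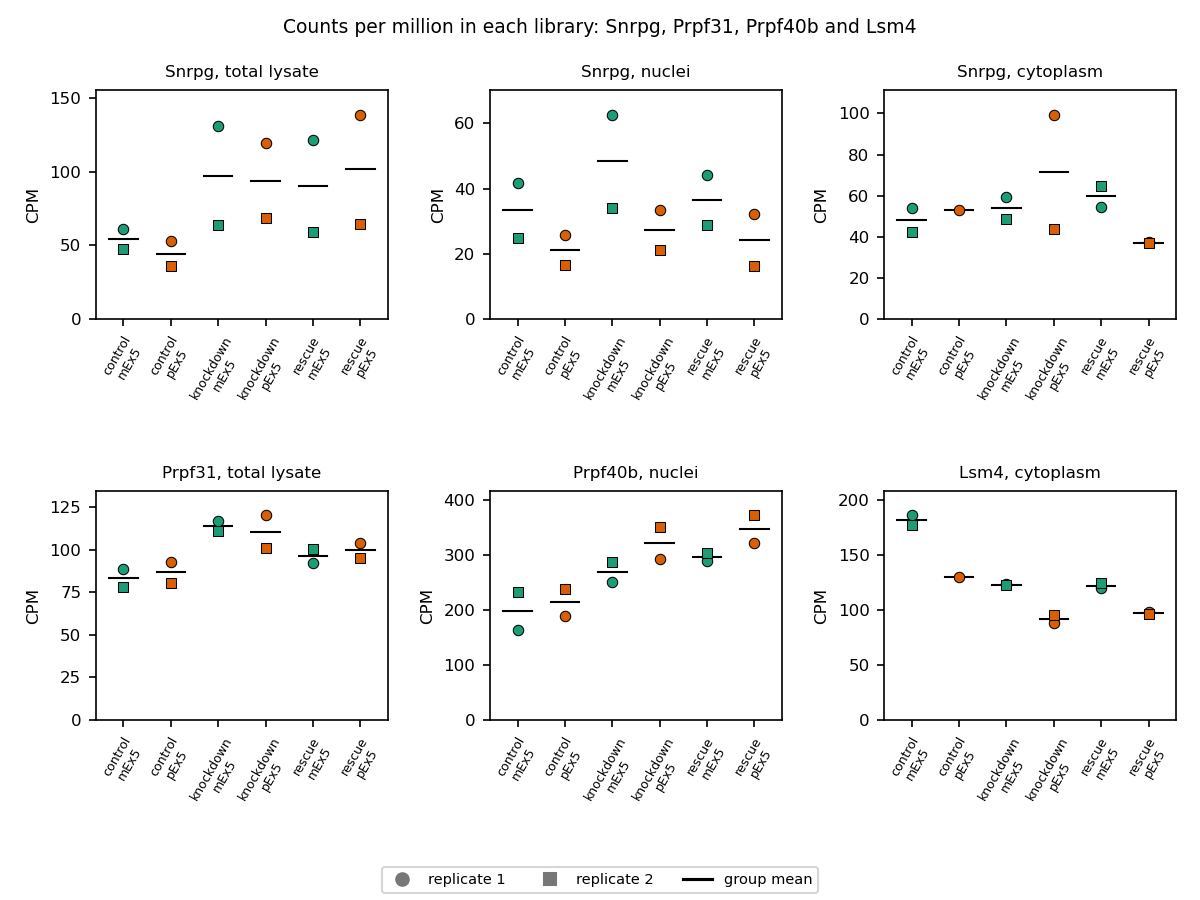
CPM in each library for Snrpg in 3 fractions, Prpf31 in total lysate, Prpf40b in nuclei and Lsm4 in cytoplasm, with circles for replicate 1, squares for replicate 2 and bars for group means (the cytoplasmic pEx5 control is 1 library). In total lysate and nuclei replicate 1 of Snrpg lies above replicate 2 in each group, while the knockdown libraries of Prpf31 and Prpf40b lie above the controls and those of Lsm4 below.

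In nuclei 8 members rose after knockdown and 3 fell, where 15.4% of all genes rose and 16% fell. Prpf31, needed to join U4/U6 with U5, rose by 0.53 (SE 0.08, adjusted p = 0.000934), from 63.5, 63.5, 79.4 and 65.6 CPM to 97.9, 93.02, 104 and 97.5 CPM. Those that rose also included Prpf40b (0.51), Prpf4 (0.49), Snrnp70 (0.48), Sf3a3 (0.42), Prpf3 (0.34) and Prpf38b (0.26). Snrpn fell by 0.40, Lsm11 by 0.37 and Prpf18 by 0.32. With the block 18 rose and 7 fell, where 27.8% of all genes rose and 27.6% fell.

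Several nuclear calls rested on single libraries. Leaving out replicate 2 of the mEx5 control, replicate 1 or replicate 2 of the mEx5 knockdown, replicate 2 of the pEx5 control or replicate 1 of the pEx5 knockdown left 5 members higher. Leaving out replicate 1 of the mEx5 knockdown or either pEx5 control left 1 lower. On RPKM without recentring, which put the median of all genes at -0.132, 3 rose and 8 fell, so that the share of calls that were higher went from 72.7% to 27.3%, and with recentring it was 75%. Without recentring Snrnp70 in nuclei (0.34, adjusted p = 0.0632) and Sf3a3 (0.28, adjusted p = 0.0842) did not pass by limma.

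In cytoplasm 10 members rose and 10 fell, near the 19.8% and 20.9% of all genes. Sf3b3, a large SF3b subunit, rose by 0.47 (SE 0.07, adjusted p = 0.000467), from 289, 292 and 293 CPM to 415, 410, 417 and 381 CPM, although its exons overlap Cog4 on the opposite strand. Prpf40b (0.46), Prpf19 (0.45), Sf3b6 (0.42), Prpf4 (0.38), Prpf8 (0.31), Sf3a3 (0.28), Lsm14a (0.26), Prpf31 (0.26) and Sf3b4 (0.22) rose as well. Lsm4 fell by 0.53 (SE 0.07, adjusted p = 0.000108), from 186, 177 and 130 CPM to 123, 123, 87.8 and 95.1 CPM. Snrpc fell by 0.53 (SE 0.07, adjusted p = 0.000242) and Snrpa1 by 0.50 (SE 0.08, adjusted p = 0.000775), each with all knockdown libraries below all controls.

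RNA of 15 mitochondrial genes made up 1.9% to 2.09% of cytoplasmic counts in controls and 2.27% to 3.31% after knockdown. In total lysate it made up 2.45% to 3.51% and 3.38% to 4.84%. Its part in the knockdown changes was not tested.

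The other cytoplasmic falls were Snrnp70 (-0.38), Lsm14b (-0.34), Snrnp27 (-0.32), Lsm11 (-0.30), Snrnp25 (-0.26), Lsm7 (-0.25) and Snrpn (-0.21). Scaled by library totals, 11 rose and 6 fell, 64.7% of calls higher against 50%. On RPKM without recentring 9 rose and 14 fell. Without replicate 1 of the mEx5 control 6 members fell, and without its replicate 2, 6 rose.

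Across fractions and without the replicate block, 4 members rose in all 3, Prpf31, Prpf4, Prpf40b and Sf3a3, and 2 fell in all 3, Lsm11 and Snrpn. The shares of all genes called in all 3 fractions or in none were not computed. These counts therefore do not set the members apart from other genes. Fractions of a replicate were split from the same sample, so the 3 are not independent observations. Prpf40b had 69.0 to 84.9 CPM in total control lysate and 92.9 to 118 CPM after knockdown. Prpf4 had 15.99 to 21.1 CPM and then 24.3 to 28.9 CPM, and Sf3a3 89.0 to 102 CPM and then 106 to 132 CPM. Lsm11 had 55.0 to 59.6 CPM and then 38.5 to 47.9 CPM. None of these ranges overlapped in total lysate. The genes were picked by their calls on the same values, so this adds no support. Snrpn shares exons with Snurf and is a near copy of Snrpb, so its reads are uncertain. With library totals its cytoplasmic change was -0.16 (edgeR, adjusted p = 0.107). Leaving out 1 library ended some of these calls by edgeR: without replicate 1 of the mEx5 knockdown in cytoplasm the adjusted p was 0.0681 for Prpf31, 0.0688 for Sf3a3, 0.0705 for Lsm11 and 0.126 for Snrpn, and without replicate 2 of the mEx5 control in nuclei it was 0.172 for Lsm11. In no fraction did 27 members pass without the block, among them Sf1, U2af1, U2af2, Sf3b1, Snrnp200 and Prpf6.

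**Figure D3:**
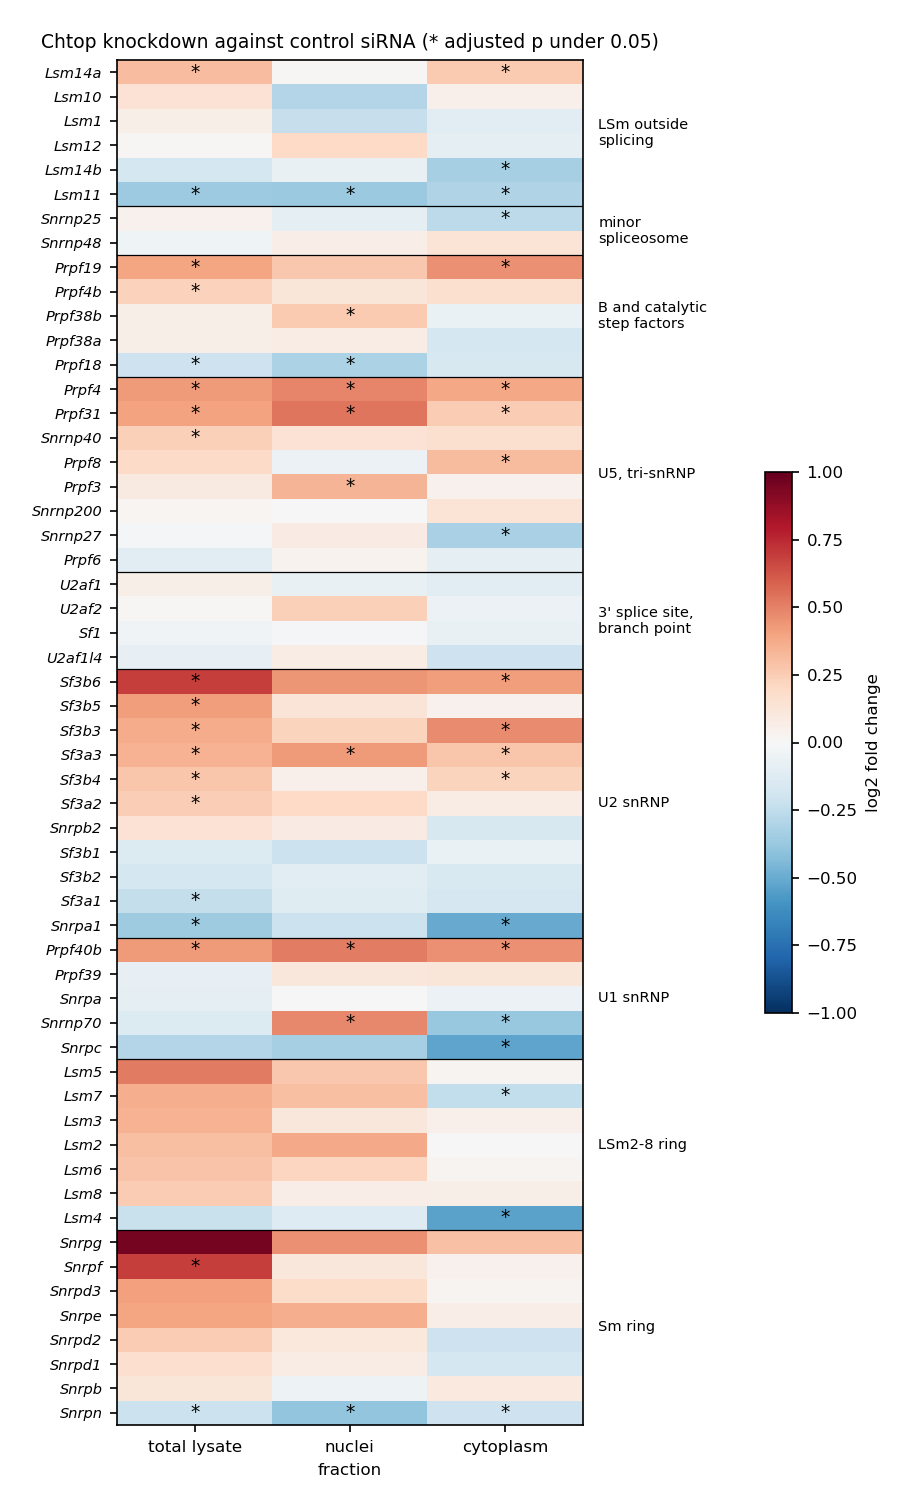
Log2 fold change after Chtop knockdown (colour) of the members in total lysate, nuclei and cytoplasm, with a star where the adjusted p was under 0.05 (1 member is not shown). Prpf4, Prpf31, Prpf40b and Sf3a3 are starred and red in all 3 columns, and Snrnp70 is red in nuclei and blue in cytoplasm.

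The other spliceosome genes, which are no members, were tested in the same fits. Among the 67, 13 rose (19.4%) and 4 fell (5.97%) in total lysate, where 21.4% and 22.6% of all genes did. The nuclear counts were 8 (11.9%) and 1 (1.49%), against 15.4% and 16% of all genes. The cytoplasmic ones were 7 (10.4%) and 11 (16.4%), against 19.8% and 20.9%. Ddx46, the helicase that acts with SF3B at the branch point, rose by 0.43 in total lysate. Of the 17 assembly and import genes 6 rose (35.3%) and 1 fell (5.88%) in total lysate. Wdr77, the methylosome partner of Prmt5 that modifies Sm proteins, rose by 0.43 in total lysate, 0.60 in nuclei and 0.41 in cytoplasm.

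Snrnp70 was the only member called in opposite directions in different fractions without the replicate block, and with it Lsm7 was another, higher in total lysate and lower in cytoplasm. Snrnp70 lies at chr7:45376453-45395742 on the minus strand (mm10), and no annotated exon of another gene overlaps its exons. In nuclei it had 976, 830, 966 and 897 CPM in controls, 1326, 1184, 1322 and 1275 CPM after knockdown, and 1107, 1088, 1165 and 1061 CPM after rescue. In cytoplasm it had 369, 356 and 327 CPM in controls, 272, 280, 249 and 257 CPM after knockdown, and 269, 266, 245 and 259 CPM after rescue. Knockdown libraries lay wholly above the controls in nuclei and wholly below them in cytoplasm. In total lysate the groups overlapped, and the change was -0.14 (SE 0.09, adjusted p = 0.23), with an adjusted p of 0.0371 under the replicate block.

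The nuclear to cytoplasmic ratio of Snrnp70 therefore rose by 0.87 (SE 0.11, adjusted p = 0.000289), by 0.88 in mEx5 and 0.86 in pEx5 cells. Among all genes the ratio rose for 3.83% and fell for 1.31%, and among the members for Snrnp70 alone by edgeR without a block. DESeq2 called 2 members higher, and with the replicate block 10 were higher and 2 lower, where 13% of all genes were higher and 9.63% lower. The authors' deposited table gives it a difference of 0.801, the class of increased ratio and a Chtop iCLIP mark. The authors' deposited table puts 11 members (19.3%) in the increased class and 3 (5.26%) in the decreased one, against 16.8% and 13.4% of all genes. Those classes are named for a cut in the log2 difference. U2af1l4, at 0.302, is classed as increased and Sf3b4, at -0.314, as decreased. Their counts are therefore not comparable with calls by the adjusted p used here. The split of all calls turned with scaling, from 74.5% higher to 33.4% with library totals and 30% on RPKM without recentring, and Snrnp70 was called higher under each.

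**Figure D4:**
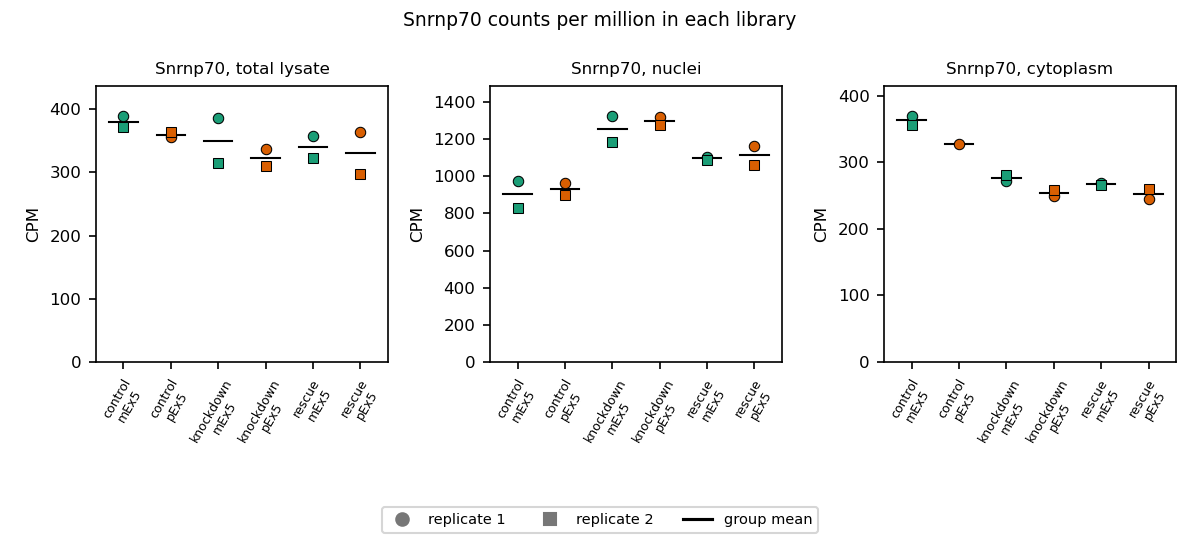
Snrnp70 CPM in each library, by fraction, treatment and line, with circles for replicate 1, squares for replicate 2 and bars for group means (the cytoplasmic pEx5 control is 1 library). In nuclei the knockdown libraries lie at 1184 to 1326 CPM, above controls and rescues, and in cytoplasm knockdown and rescue both lie below the controls.

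Without the replicate block, re-expression of Chtop moved no member past the threshold in any fraction. Averaged over both lines, edgeR called 0 of 57 members against knockdown in total lysate, nuclei and cytoplasm, and 0 with DESeq2. Among all genes of total lysate 0.0217% were higher and 0% lower. The nuclear shares were 0.0108% and 0%, the cytoplasmic ones 0.0325% and 0.0108%. At an unadjusted p under 0.05 there were 4 members in total lysate, 3 in nuclei and 6 in cytoplasm. With the replicate block 1 member was called in total lysate, Snrpb, lower, where 0.964% of all genes were higher and 0.877% lower. In nuclei Snrpf and Snrpg were then lower and Snrpn higher, where 2.77% of all genes were higher and 4.07% lower.

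Sizes after rescue were small. Member fold changes against knockdown ran from -0.25 to 0.23 in total lysate, from -0.32 to 0.27 in nuclei and from -0.40 to 0.13 in cytoplasm. Snrnp70 had -0.21 in nuclei (SE 0.09, adjusted p = 0.575), with all rescue libraries below all knockdown libraries, and -0.03 in cytoplasm (95% interval -0.14 to 0.09). For Prpf31 it was -0.19 in total lysate (SE 0.08, adjusted p = 0.677). Without replicate 2 of the pEx5 knockdown, 8 members were called lower in cytoplasm and 0 higher, and among all genes 7.06% were lower and 7.07% higher. That group then rested on replicate 1 alone, in which Snrpg had 99.4 CPM against 43.6 CPM in replicate 2.

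**Figure D5:**
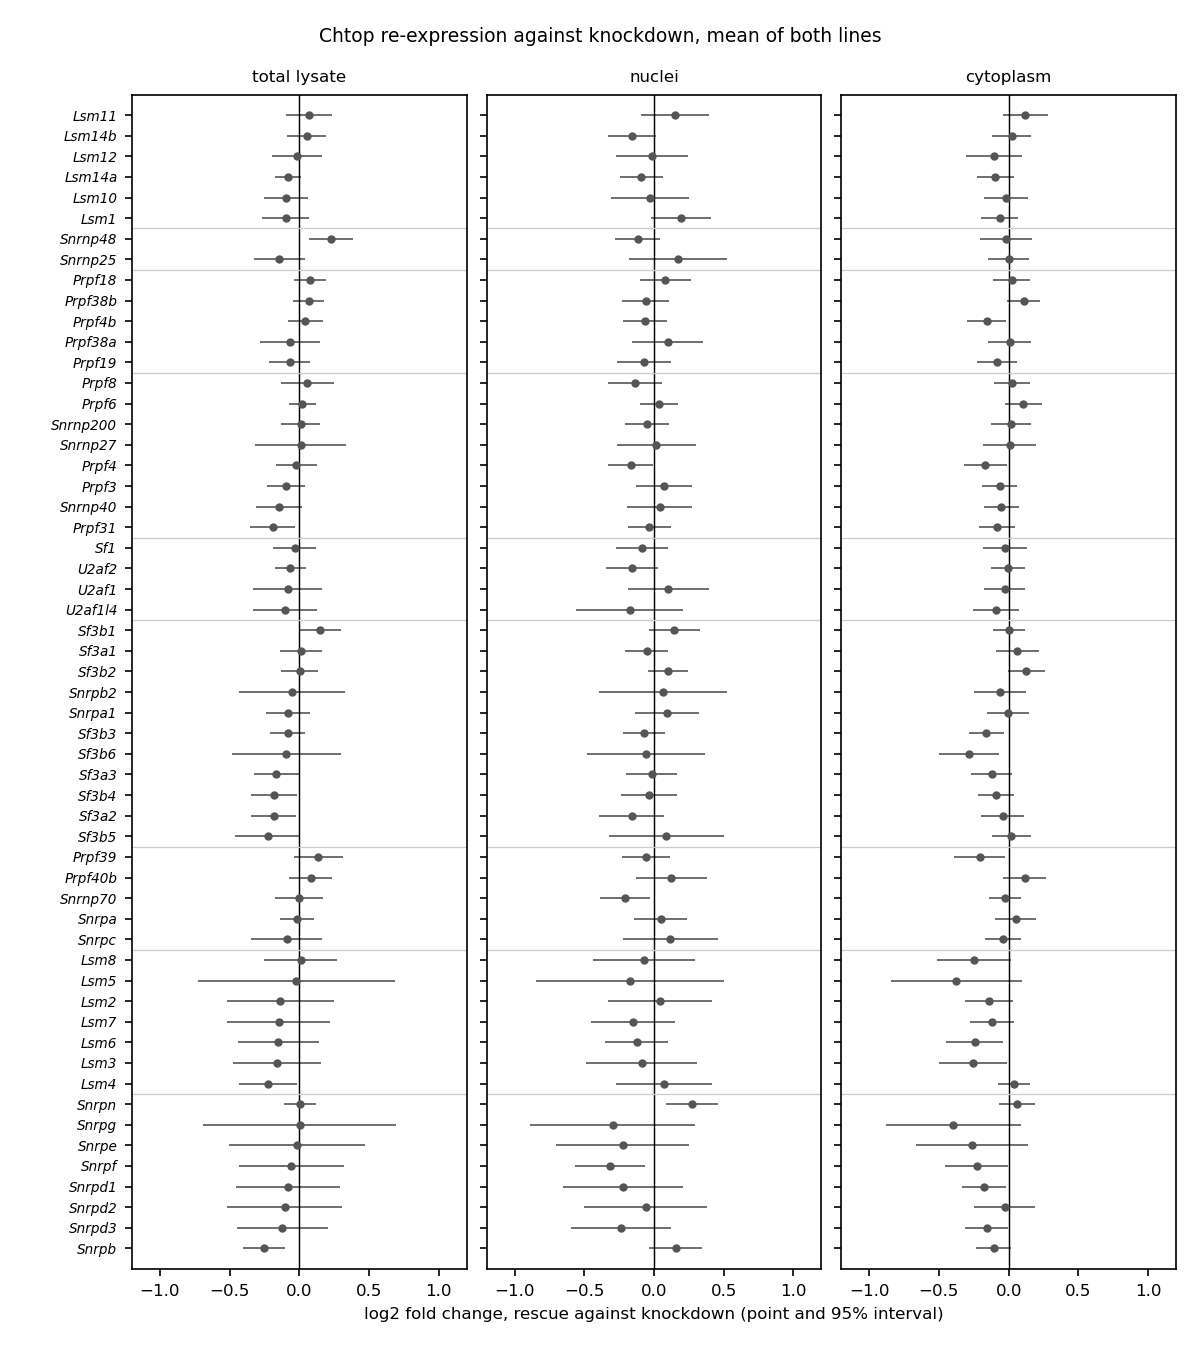
Log2 fold change of rescue against knockdown (x axis, point and 95% interval), averaged over both lines, for the members in each fraction (1 member is not shown). No member passed the adjusted threshold without the replicate block, and the widest intervals are those of short ring genes such as Snrpg and Lsm5.

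The isoforms with and without exon 5 were not told apart in these genes. The difference between the pEx5 and mEx5 rescue effects was called by edgeR for 0 members in each fraction, as for 0% of all genes, and by DESeq2 for 0 members. At an unadjusted p under 0.05 there were 0 members in total lysate, 0 in nuclei and 4 in cytoplasm, namely Lsm6, Lsm7, Lsm8 and Snrpf, all lower. Without replicate 2 of the pEx5 knockdown 7 were called lower in cytoplasm, where 2.78% of all genes were lower and 0.184% higher. For Snrnp70 the difference was 0.07 in total lysate (interval -0.27 to 0.42), -0.03 in nuclei (-0.38 to 0.32) and 0.04 in cytoplasm (-0.19 to 0.27). Ring genes had larger differences in cytoplasm. The LSm2 to LSm8 median was -0.48 (6 below 0, 1 above, Lsm5 lowest at -0.84). The Sm median was -0.28 (7 below 0, 1 above, Snrpg lowest at -1.08). In total lysate these medians were 0.28 and 0.20, with every ring gene above 0. The part of single libraries in these sizes was not tested.

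Rescue changed the nuclear to cytoplasmic ratio of 0 members by edgeR and 0 by DESeq2, with 1 at an unadjusted p under 0.05, and of 0% of all genes upward and 0.0216% downward. For Snrnp70 it was -0.18 (SE 0.10, adjusted p = 0.999).

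Levels per length in control total lysate spanned a wide range. Lsm4 (305 ± 55.1 RPKM, SD, n = 4), Lsm7 (296 ± 38.5), Snrpe (282 ± 50.0) and U2af1 (281 ± 24.9) were the 4 highest, and neighbours in this order lay within 1 SD of each other. Prpf4 (5.47 ± 0.67) was lowest, with Lsm11 (18.5 ± 0.79), Snrnp48 (18.7 ± 2.01) and Prpf4b (18.97 ± 1.31) next, and those 3 lay within each other's spread. Snrnp70 stood at 227 ± 10.9 RPKM in total lysate, 432 ± 40.5 in nuclei and 208 ± 11.1 (n = 3) in cytoplasm.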

How the data were processed

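Polyadenylated RNA of 35 libraries was analysed. The submitters' processing notes name Salmon 0.14.1, DESeq2 and the mm10 build. The counts deposited by the authors are whole numbers per gene, and the deposited RPKM are scaled by length and depth by the authors. The authors' deposited table holds log2 nuclear to cytoplasmic ratios and, as other columns, iCLIP and class marks. No source used here says whether counting used strand. In the RPKM table, 1 column matched no labelled sample and was not used.

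Counts were fitted per fraction and jointly for nuclei and cytoplasm with edgeR 4.0.16 (filterByExpr, TMM, robust quasi-likelihood, R 4.3.3), with Benjamini-Hochberg adjustment over all genes and a threshold of 0.05. The joint fit treats nuclei and cytoplasm of the same sample as independent. Contrasts average both lines. SE is the log2 change divided by the root of F, and 95% intervals are normal ones from it. CPM are TMM-scaled. Full statistics go to the called members with the largest changes, at a mean of at least 5 CPM. Positions of genes are from GENCODE M21, and those of the windows before the start from RefSeq.

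Replicate numbers paired libraries in total lysate (correlations of deviations 0.349 to 0.794) and nuclei (0.525 to 0.72), where every pair was over 0.1. In cytoplasm the correlations ran from 0.0593 to 0.649 with a median of 0.327, so not every pair was over 0.1. The main fits had no replicate block. Alternatives were DESeq2 1.42.0, its size factors, library totals, no filter, the block and leaving out each library. Log2(RPKM + 0.5) with limma 3.58.1 was added after seeing the data, and a recentred version after seeing its results. Members and lists were chosen with earlier results of these data known. Values of 1 member, which stays in the counts and medians, are not reported here.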

Additional observations from a re-analysis of the deposited data

Results flagged for a closer look

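The rise in the nuclear to cytoplasmic ratio of Snrnp70 after knockdown, 0.8713 on the log2 scale, marks it because the knockdown effect differed between nuclei and cytoplasm by a test of the difference itself (edgeR, adjusted p = 0.000289).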

How the results depend on the processing

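Of 94 called member results, DESeq2, no filter and the replicate block left each called in the same direction, size factors ended 2 and library totals 7. Leaving out 1 library ended 119 of 1518 and reversed 0. The alternatives on RPKM were chosen after seeing the data. RPKM as deposited ended 10 and reversed 4, all nuclear to cytoplasmic ratios: Prpf3 at -0.06729, Prpf4 at -0.04665, Sf3b1 at -0.0259 and Sf3b3 at -0.1004. Recentring each library to the same median, chosen after those reversals were seen, ended 4 and reversed 0. The uncentred RPKM also gave 6 members higher in nuclei than cytoplasm, 8 lower after knockdown in total lysate, 3 higher and 8 lower in nuclei, and 1 lower ratio. The replicate block gave 27 higher and 12 lower in total lysate, 18 and 7 in nuclei, 1 lower after rescue in total lysate, 1 higher and 2 lower after rescue in nuclei, and 10 higher and 2 lower ratios after knockdown. The block for cytoplasm, where numbers did not pair every library, gave 12 higher and 10 lower. Library totals gave 6 lower after knockdown in cytoplasm and 1 lower ratio, and DESeq2 gave 2 higher ratios. The cause was not tested.

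Leaving out 1 library, members called higher and lower after knockdown ranged from 7 to 18 and 3 to 6 in total lysate, 5 to 9 and 1 to 3 in nuclei, and 6 to 11 and 6 to 10 in cytoplasm. Nuclear to cytoplasmic calls ranged from 11 to 13 higher and 27 to 33 lower, cytoplasmic rescue from 0 to 8 lower and the cytoplasmic isoform difference from 0 to 7 lower. Without the single cytoplasmic pEx5 control library the knockdown contrast in cytoplasm, the nuclear to cytoplasmic ratio and its knockdown change could not be estimated. CPM divided by gene length was planned only with a length from the deposited tables, which give none, and was not run with the annotation's transcript lengths. Where 1 library remained in a group it was assumed to vary like the others. The median SE over all genes was 0.084 to 0.11 for knockdown and 0.17 to 0.22 for the isoform difference, which limits the size of difference that could be seen.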
